A study of Mus musculus with 16 samples.

Results

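The 36 genes described here are those of DNA replication and S phase: the 6 subunits of the MCM helicase and the factors that load or restrain it, the clamp, polymerases and ligase of the fork, the enzymes that supply deoxynucleotides, the chaperones that rebuild chromatin behind the fork, and the repair and checkpoint factors that travel with it. They form a list of gene names, and no threshold on a measured value enters it. All 36 are among the 24421 genes listed, and together they hold 13249 unique molecular identifiers (UMIs, 1 for each captured transcript). The 8 licensing genes hold 3941 of these, the 8 genes of DNA synthesis 2890, the 5 of nucleotide supply 2796, the 6 of chromatin 1955, the 5 of repair and checkpoint 1093 and the 4 of origin firing and the fork (Cdc45, Gins2, Dtl and Ccne2) 574. Every member has at least 50 UMIs, from 60 for Exo1, 73 for Slbp and 77 for Cdc6 to 885 for Dut and 1071 for Mcm6.

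The cells are single cells of crypt-enriched small intestine from untreated outbred mice at postnatal day 16, captured in ddSEQ droplets and read at the 3′ end of each transcript. Wild-type (WT) mice were compared with ROBO-Crainbow (ROBO) mice, in which Cre driven by the Villin promoter switches on, in recombined gut epithelial cells, 1 of 3 transgenes: R-spondin 3 or 1 of 2 PTPRK-RSPO3 fusions. There are 8 deposited samples per genotype, but a cell's name gives its genotype and not its sample, and no value here tells which transgene a ROBO cell carries. Each genotype is therefore 1 pooled sample, and no test between genotypes could be made. Every 95% interval covers counting error only and leaves out the spread between mice. Intervals of levels and of their ratios take each UMI as independent, so they also leave out the spread between cells and can be too narrow. The question asked of these genes is where their transcripts end between crypt and villus tip, which of them persist, and how each differs between the genotypes.

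In the small intestine, stem cells at the crypt base feed a zone of rapidly dividing transiently amplifying cells, whose daughters stop dividing as they move out of the crypt and onto the villus. Before S phase the MCM helicase is loaded onto origins, a step called licensing. It is then switched on together with CDC45 and GINS, and DNA is copied behind it by polymerases held on the PCNA clamp. Many of these genes are known targets of E2F factors, which are released when cells commit to divide, whereas genes of mitosis are switched on later in the cycle.

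Because E2F is the factor best known for this gene set, the promoters are shown first. RefSeq promoter windows (GRCm38.p6, 250 bases before to 50 after each start) were at hand for 27 of the 36 members, 4 of them with more than 1 window. The letters TTTCCCGC, TTTCGCGC, TTTGCCGC or TTTGGCGC, which are classical E2F letters, were searched on both strands. They stood in the windows of 12 of the 27 members (44.4%), of 23 of 58 other replication genes (39.7%), of 2 of 49 mitotic genes (4.08%) and of 532 of 16040 genes in all (3.32%). By role, 5 of 6 licensing genes held them, 3 of 7 synthesis genes, 2 of 5 chromatin genes and 0 of 5 genes of nucleotide supply. The letters CCAAT, which NF-Y binds, stood in 17 members (63.0%), 39 mitotic genes (79.6%) and 42.1% of all genes. TTTGAA, the core of the CHR element of mitotic genes, stood in 4 members (14.8%), 35 mitotic genes (71.4%) and 17.6% of all genes. A match is a match of letters and not a mapped binding site, and in Mcm5 and in Mcm6 a pair of matches on opposite strands overlaps.

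The stretches around the matches upstream of the start are printed for the 8 members that have one there, 5′ to 3′ on the gene's own strand, with the E2F letters or their reverse complement in capitals. They show that the 3 MCM genes among them carry the letters in different arrangements.
Mcm5, chr8:75109340-75109383, plus strand: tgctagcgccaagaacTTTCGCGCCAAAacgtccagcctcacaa
Mcm6, chr1:128359729-128359831, minus strand: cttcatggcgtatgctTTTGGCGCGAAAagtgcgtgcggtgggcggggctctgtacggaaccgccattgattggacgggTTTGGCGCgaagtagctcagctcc
Mcm7, chr5:138172025-138172064, minus strand: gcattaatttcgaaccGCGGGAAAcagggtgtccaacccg
Cdc6, chr11:98907997-98908036, plus strand: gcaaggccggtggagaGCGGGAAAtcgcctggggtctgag
Dtl, chr1:191575545-191575568, minus strand: gaaagcgtgacgtcagTTTGGCGC
Pola1, chrX:93632270-93632309, minus strand: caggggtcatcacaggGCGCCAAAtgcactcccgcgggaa
Hells, chr19:38930912-38930951, plus strand: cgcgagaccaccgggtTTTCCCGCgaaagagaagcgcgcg
Uhrf1, chr17:56304112-56304151, plus strand: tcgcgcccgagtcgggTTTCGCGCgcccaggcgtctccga
Counted from the start, the matches begin at -153 and -149 in Mcm5, at -110, -106 and -47 in Mcm6, at -165 in Mcm7, at -138 in Cdc6 and in Pola1, at -8 in Dtl, at -62 in Hells and at -185 in Uhrf1.

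The WT matrix holds 1348 cells and 2682127 UMIs (533 to 11908 per cell, median 1492), and the ROBO matrix 1249 cells and 2428435 UMIs (463 to 13756 per cell, median 1610). Cells were clustered without the members, the other replication genes and the mitotic genes, so that the grouping of cells reads none of them. Names came from markers, and 1 name did use the mitotic genes. Of 11 clusters, 3 were stem cell-like (896 cells), 1 transiently amplifying-like (390), 1 bottom enterocyte-like (204), 2 middle enterocyte-like (656) and 1 top enterocyte-like (233). The remaining 3 were secretory-like (131 cells), immune-like with fibroblasts (55) and enteroendocrine-like (32). The transiently amplifying-like cluster, led by Dmbt1 and the mitotic activator Cdc20, has 43 of 60 mitotic genes raised, but also bottom enterocyte markers such as Dmbt1, and it was named for the mitotic genes, so its mitotic level is a description and no finding. Its marker score alone had named it bottom enterocyte. The bottom enterocyte-like cluster has 3 bottom markers raised, and the middle cluster led by Sis and Reg1 has 7, beside 13 middle ones. At a resolution of 1.2 a cluster led by Reg1 was itself named bottom. The order of the bottom and middle classes, and the steps between them, therefore rest on these names. The stem cell-like clusters differ in depth: the one led by Erdr1, Rnf43 and Axin2 has a median of 782 UMIs per cell, the Igfbp4 and Lgr5 cluster 1988, and the Sfrp5 and Gkn3 cluster 3598.

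Levels are given as UMIs of a gene or of the summed members per 10000 UMIs of the cells, and since 1 transcript gives 1 tag at its 3′ end, they can be set side by side between genes without a correction for length. Summed over the members, stem cell-like cells held 40.9 (95% interval 40.0 to 41.9) and transiently amplifying-like cells 41.5 (40.1 to 42.8). Bottom enterocyte-like cells held 13.6 (12.4 to 14.9), middle ones 6.80 (6.39 to 7.24) and top ones 4.57 (3.86 to 5.37). The ratio of amplifying over stem cells was 1.01 (0.973 to 1.06) in these clusters. It depends on how the cells are clustered and on counting the Sfrp5 and Gkn3 cluster, rich in mitotic transcripts, as stem. The stem and amplifying levels were 20.9 and 45.3 with all variable genes and S and G2M scores regressed out, 32.1 and 46.8 at a resolution of 0.4, and 39.1 and 46.4 with 30 principal components. The classes of these alternatives do not hold the same cells. With 30 principal components a stem cell-like cluster of 497 cells was led by Sfrp5 and Dmbt1 and had 45 mitotic genes raised, and the amplifying class held 176 cells. The summed mitotic genes, for which the amplifying cluster was named, were 1.63-fold (1.57 to 1.68) higher there than in the stem cells. The step to the bottom enterocytes was 3.01-fold (2.74 to 3.31) down from the stem cells, that to the middle enterocytes 6.02-fold (5.63 to 6.44) and that to the top enterocytes 8.96-fold (7.61 to 10.6). Mitotic genes were 3.80-, 4.48- and 8.73-fold lower than in stem cells in the same 3 classes.

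**Figure D1:**
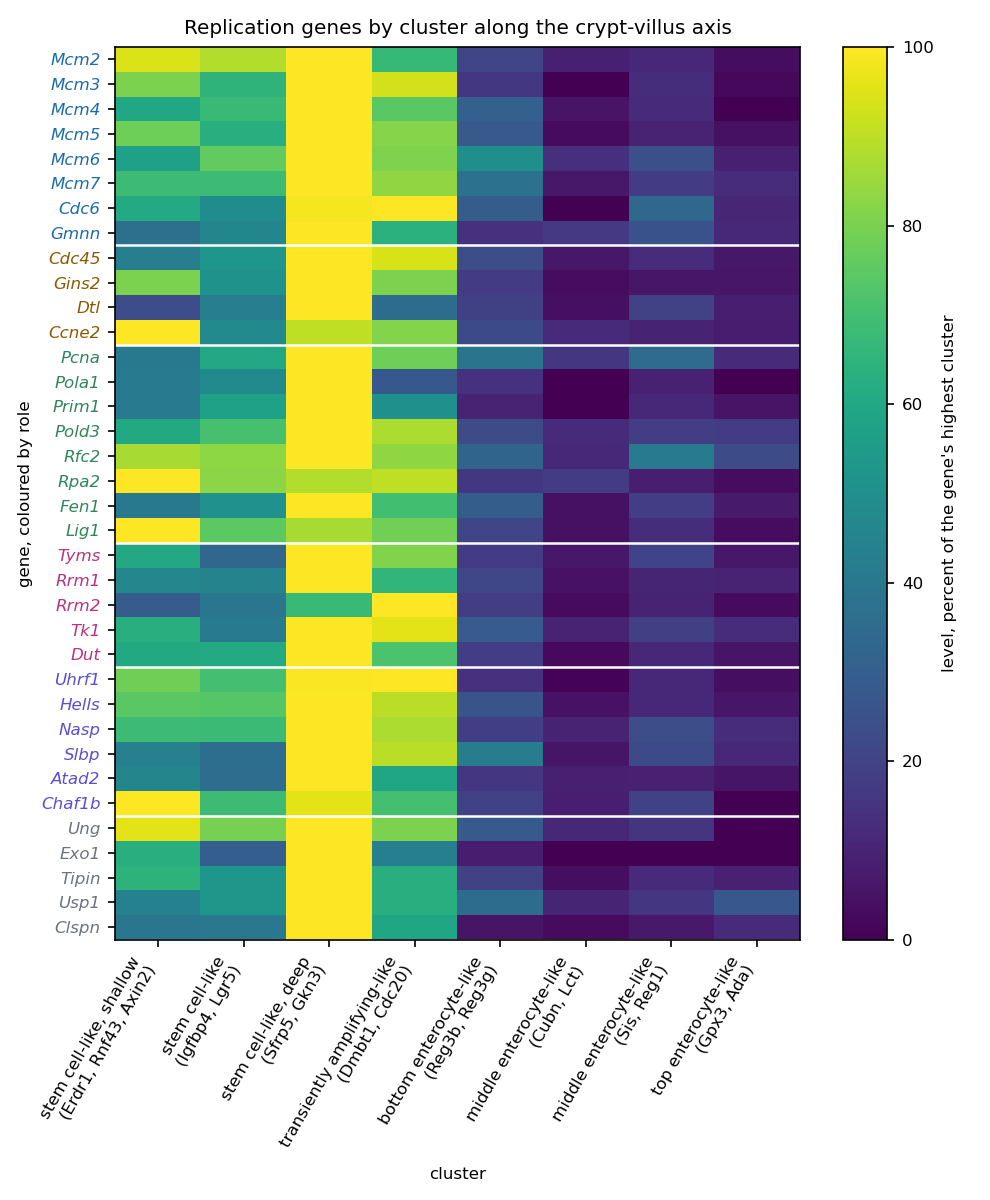
Level of each of the 36 members (rows, names coloured by role, roles divided by white lines) in the 8 clusters of the crypt-villus axis (columns), as a percentage of the gene's own highest cluster, with both genotypes together. Of the 36, 29 are highest in the deep stem cell-like cluster, 4 in the shallow one and 3 in the transiently amplifying-like cluster, with no count over all genes beside them. The 4 enterocyte columns are dark for nearly every gene.

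Within the classes the level was uneven. Among the stem cell-like clusters it was 33.8 (31.9 to 35.9) in the shallow one, 32.5 (31.1 to 33.8) in the Igfbp4 and Lgr5 cluster and 53.6 (51.9 to 55.4) in the deep one, which was 1.65-fold (1.57 to 1.74) above its neighbour. The same deep cluster held 72.3 mitotic UMIs per 10000, against 22.2 in the Igfbp4 and Lgr5 cluster and 70.3 in the transiently amplifying-like one. The highest S-phase level of any cluster thus stood in stem cell-like cells that were also rich in mitotic transcripts and in UMIs per cell. The part of depth in this difference was not tested. In the middle enterocytes the Sis and Reg1 cluster held 9.09 (8.45 to 9.77) and the Cubn and Lct cluster 3.89 (3.42 to 4.41), a difference of 2.33-fold (2.02 to 2.71). Gene by gene, 29 of the 36 members were highest in the deep stem cell-like cluster. How many of all genes were highest there was not counted, so this describes the members and is not shown to be particular to them. Ccne2, Rpa2, Lig1 and Chaf1b were highest in the shallow stem cluster, and Rrm2, Uhrf1 and Cdc6 in the transiently amplifying-like one. Members did not end in 1 step among the enterocytes: the Cubn and Lct cluster was already at the level of the top cells (ratio 0.852, interval 0.692 to 1.05), while the Sis and Reg1 cluster was 1.99-fold (1.66 to 2.39) above them. Outside the absorptive lineage the level was 23.6 in secretory-like cells, 34.8 in the immune-like cluster and 18.6 in enteroendocrine-like cells.

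A finer axis was made by ranking the crypt and enterocyte cells by the share of their UMIs in villus genes, none of them a member, and cutting the ranks into 10 bins of 237 or 238 cells. The member level was 46.4 and 46.5 in the first pair of bins, 42.3 in bin 3, 37.4 in bin 4 and 30.4 in bin 5. It then dropped to 17.3 in bin 6, 9.85 in bin 7 and 5.03 in bin 8, and stayed at 5.16 and 3.93 in the last pair. The mitotic genes held their level for longer over both genotypes together, with 49.6 in bin 1 and 48.3 in bin 5, before they came down to 30.1, 12.9 and 5.58 in bins 6 to 8. As a percentage of bin 1, the members stood at 80.6% in bin 4, 65.5% in bin 5, 37.2% in bin 6 and 8.48% in bin 10. Over both genotypes S-phase transcripts were thus below their first level from bin 3 on, in WT from bin 4 on, and both lists had reached their low plateau by bin 8.

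**Figure D2:**
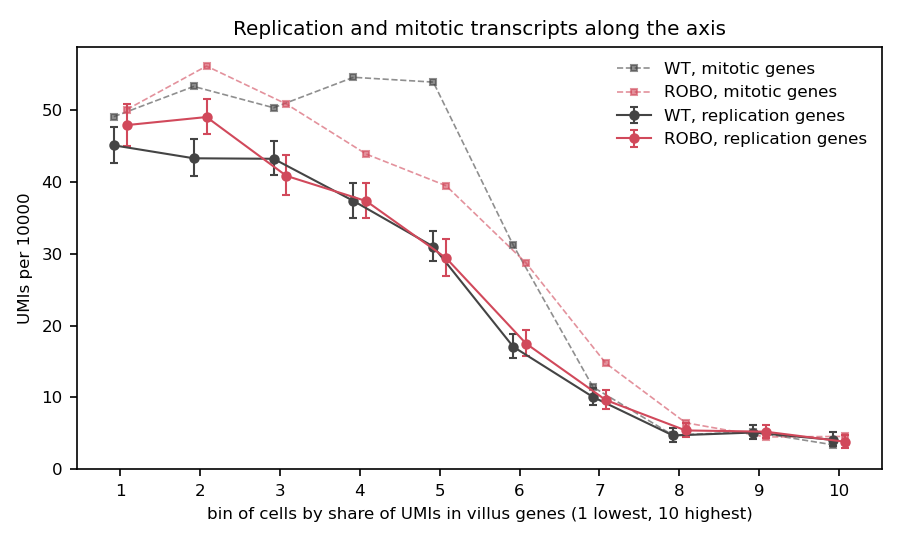
Summed member level (UMIs per 10000, 95% counting interval) against villus-share bin, from bin 1 at the crypt end to bin 10 at the villus end, for WT and ROBO, with the mitotic genes drawn the same way. Members decline from bin 4 on in WT and from bin 3 on in ROBO, mitotic genes from bin 6 on in WT and from bin 4 on in ROBO, and all 4 lines are near 5 from bin 8.

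The last bin in which a member stood above 0.5 of its mean over bins 1 to 5 was bin 4 for 1 member, bin 5 for 22 and bin 6 for 13. The early one was Pola1, the catalytic subunit of the polymerase that starts each new strand, whose level went from 0.589 in bin 1 to 0.241 in bin 4 and 0.174 in bin 5. The 13 that lasted into bin 6 were Mcm6, Mcm7, Cdc6, Gmnn, Dtl, Fen1, Rfc2, Exo1, Rrm2, Tk1, Ung, Usp1 and Chaf1b, which come from all 6 roles. With as few as 56 UMIs per gene over the 10 bins, a shift of 1 bin for the rarer members rests on few UMIs. Mcm6 went from 3.90 in bin 1 to 2.51 in bin 5, 1.80 in bin 6 and 0.202 in bin 10. Dut, the dUTPase that keeps uracil out of DNA, went from 3.31 to 1.53, 1.09 and 0.231 at the same places.

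Pcna, the sliding clamp, is also used in DNA repair outside S phase. Its level was 2.17 in bin 1, 1.5 in bin 5, 0.728 in bin 6, 0.477 in bin 8, 0.928 in bin 9 and 0.289 in bin 10, so that bin 9 held 46.7% of its crypt mean and bin 10 14.5%. Mcm7 was uneven as well at the villus end, with 0.0226 (1 UMI) in bin 9 and 0.376 (13 UMIs) in bin 10. Usp1, the protease that takes ubiquitin off PCNA and FANCD2, held 1.2 in bin 1 and 0.463 in bin 10, which was 37.5% of its crypt mean and the highest percentage of any member in that bin. Gmnn, geminin, which blocks repeated licensing, stood at 39.9% of its crypt mean in bin 8, and Slbp, which binds the 3′ end of histone mRNA, at 36.9%. None of these 4 reached 0.5 of its crypt mean in bins 8 to 10.

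Of the 33 members with at least 50 UMIs in stem and bottom enterocyte-like cells together, 30 were at 0.5 of the stem level or less in the bottom cells (15.0% of all genes were). The 3 above it were Usp1 (0.509 of the stem level), Pcna (0.544) and Mcm6 (0.609). The median member ratio was 0.286, against 0.882 over all genes. Mcm6, with 1.95 in WT and 1.89 in ROBO bottom cells, was the member with the highest level there. In the middle enterocytes 33 of 33 members were at 0.5 of the stem level or less (background 21.5%), with a median ratio of 0.143 against 0.844 over all genes. Pcna was the least reduced of these, at 0.370 of the stem level, Gins2, of the GINS complex, the most reduced of those with a UMI, at 0.0638, and Exo1, the exonuclease of mismatch repair, had no UMI in the 656 cells. Members reached the minimum mainly through the stem cells, with 6991 UMIs there, 474 in bottom and 989 in middle cells. The counts in both classes therefore describe the fall and do not test it.

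In the top enterocytes 33 of 33 members were again at 0.5 or less, where 44.6% of all genes were, and 0 were above it (background 55.4%). The members reached the minimum mainly through the stem cells, with 6991 UMIs of all 36 there and 147 in top cells. This count therefore describes the fall and does not test it. The median ratio was 0.0932, or 0.108 with members at 0 set to the floor of 3 UMIs, and 0.572 over all genes. By this rule no member persisted at the villus top. The one nearest to it was Usp1, with 17 UMIs in top and 231 in stem cells, a ratio of 0.391 (log2 -1.36, -2.16 to -0.64). Of the 17 UMIs, 4 were in WT and 13 in ROBO cells. With clusters made from all variable genes after regressing out S and G2M scores, where the stem class held 20.9 member UMIs per 10000, the ratio for Usp1 was 0.810 (17 against 44 UMIs), and at a resolution of 0.4 it was 0.548, so Usp1 counted as persisting there. Rfc2, a subunit of the clamp loader, came next, with 12 UMIs in top and 247 in stem cells and a ratio of 0.258 (log2 -1.95, -2.93 to -1.12). Pold3, an accessory subunit of polymerase delta, followed at 0.221 on 5 UMIs. Of the most abundant members, Mcm6 had 8 UMIs in WT and 3 in ROBO top cells and Dut 0 and 7, while all members together had 68 and 79.

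At the other end, 5 members had no UMI in the 233 top cells: Mcm4, Ung, Pola1, Exo1 and Chaf1b. Against the floor of 3 UMIs, Mcm4 was at least 15.0-fold lower than in stem cells, Ung, which cuts uracil from DNA, at least 6.90-fold, Chaf1b, of the chaperone that places histones on new DNA, at least 6.78-fold and Pola1 at least 5.71-fold. The floor for Exo1, at least 2.57-fold, is looser because it had 41 UMIs in all stem cells. The subunits of the MCM ring were unequal: Mcm3 had 1 UMI in top and 221 in stem cells, Mcm2 had 2 and 287 (ratio of levels 0.0370), and Mcm7 had 9 and 304 (ratio 0.157).

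By role, the top over stem ratio of summed UMIs was 0.0835 (0.0573 to 0.118) for licensing, 0.101 (0.0370 to 0.223) for origin firing and the fork, 0.126 (0.0877 to 0.175) for synthesis, 0.115 (0.0780 to 0.164) for nucleotide supply and 0.0934 (0.0552 to 0.148) for chromatin. Repair and checkpoint genes stood at 0.202 (0.127 to 0.305), the highest of the 6, but Usp1 gave 17 of their 23 UMIs in the top cells. Without Usp1, a sum added after seeing the data, the other repair and checkpoint genes had 6 UMIs there and 375 in stem cells, a ratio of 0.0850 (0.0310 to 0.187). In the bottom enterocytes the order was different: licensing genes had the highest ratio, 0.394 (0.335 to 0.461), and chromatin genes the lowest, 0.244 (0.181 to 0.323). Mcm6 alone gave 67 of the licensing UMIs there.

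A low level can come from a few cells with many transcripts or from many cells with few. After each cell was thinned to the lower quartile of UMIs per cell, and shallower cells left out, 57.9% of stem cell-like cells (355 of 613, exact interval 53.9 to 61.9) and 63.4% of transiently amplifying-like cells (211 of 333) held 3 or more member UMIs. The share was 13.8% in bottom (18 of 130), 5.05% in middle (28 of 554) and 3.21% in top cells (5 of 156, 1.05 to 7.32), whose median depth of 1195 UMIs compares with 1433 in stem cells. Without thinning the shares were 67.0% in stem and 5.15% in top cells. In the bottom enterocytes the 10% of cells with the most member UMIs, 21 cells, held 57.8% of all member UMIs, and the highest cell had 41. The same percentage of cells held 48.3% in the top enterocytes, 50.2% in the Cubn and Lct cluster and 24.5% in the deep stem cell-like cluster. Member UMIs were thus more concentrated in a minority of cells in these enterocyte clusters than in the deep stem cells. Of the bottom cells 64.7% had a member UMI, and of the top cells 40.3% (94 of 233), with at most 5 in a cell.

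The member level that remained in the top enterocytes was close in size to that of a chosen list of 18 crypt genes, which does not stand for crypt transcripts at large. That list stood at 0.113 (0.0952 to 0.133) of the stem level there, the members at 0.112 (0.0942 to 0.131) and the mitotic genes at 0.115 (0.0973 to 0.134). Goblet, Paneth and enteroendocrine genes had lower ratios in the top cells, each set against its own source class. Goblet genes were at 0.00428 and Paneth genes at 0.0313 of the secretory-like level, and enteroendocrine genes at 0.00216 of the enteroendocrine-like level. These source classes hold 131 and 32 cells, and the ratios do not tell how abundant the transcripts were in top cells. The part of free RNA from crypt cells in the member level of top cells was not tested, and at this depth a low level of transcription there cannot be told apart from it.

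Cells in the classes were next divided by their mitotic transcripts, with mitotic-positive meaning at least 2 UMIs of the mitotic list after the same thinning. In the bottom enterocytes the 22 mitotic-positive cells held 28.8 member UMIs per 10000 and the 108 mitotic-negative cells 9.997. In the middle cells the values were 11.5 and 5.79, and in the top cells 10.9 for 12 positive cells and 3.69 for the rest. Beyond the crypt the mitotic-positive cells, pooled as groups, thus held more member UMIs per 10000 than the negative ones. The positive groups are small, with 184 member UMIs in the bottom and 22 in the top cells. An association between single cells was not tested. In the stem cell-like cells the positive cells were higher too (47.1 against 35.3), but in the transiently amplifying-like cells the order was the opposite, with 39.3 in the 292 positive and 61.1 in the 41 negative cells.

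Over both crypt classes, 393 of 946 cells (41.5%) had both kinds of transcript at these limits, 173 (18.3%) had members only, 229 (24.2%) mitotic genes only and 151 (16.0%) neither. The crypt cells could be set in order by their mitotic UMIs after thinning, and the groups had median depths of 2027 to 2175 UMIs before it. The member level was 35.5 with 0 mitotic UMIs, 44.3 with 1, 51.6 with 2 to 4, 45.6 with 5 to 9 and 30.6 (29.0 to 32.3) with 10 or more. Licensing genes were highest at 1 mitotic UMI (16.6) and lowest at 10 or more (7.10). Nucleotide supply was lowest at 0 (5.54) and highest at 5 to 9 (11.5), with 8.89 at 10 or more. The roles therefore did not follow 1 course, although neighbouring groups overlap: licensing was at 16.0 (15.0 to 17.2) with 2 to 4 mitotic UMIs, and Mcm3, Mcm4 and Gmnn peaked there. Within nucleotide supply, Rrm1 and Tk1 peaked at 5 to 9 and Dut, Tyms and Rrm2 at 2 to 4.

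**Figure D3:**
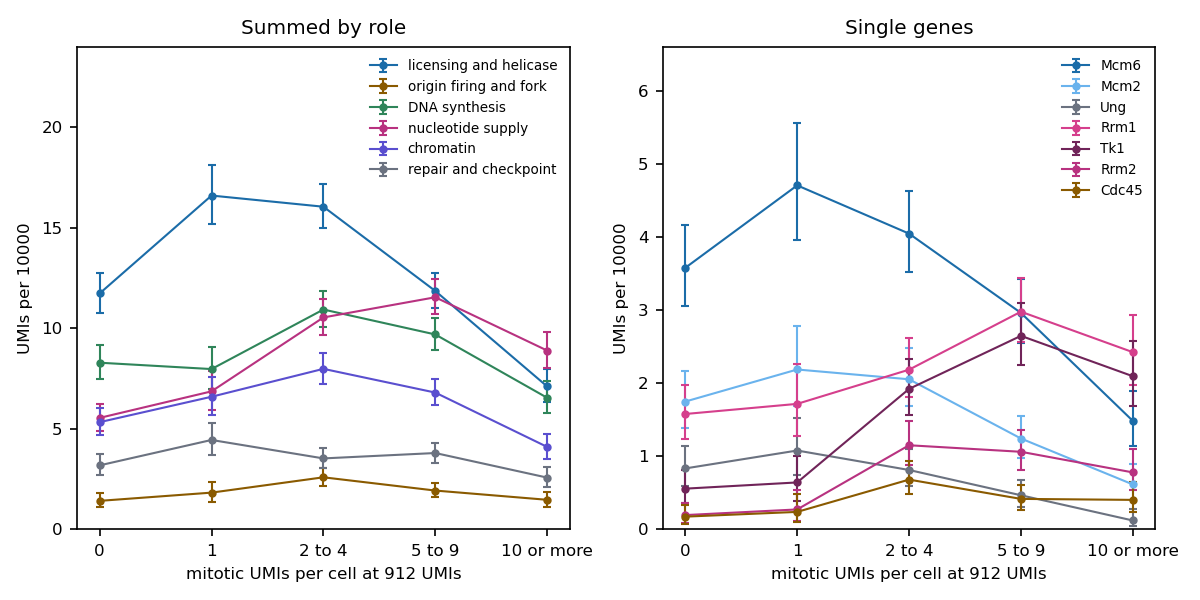
Levels in crypt cells (UMIs per 10000, with 95% counting intervals) against mitotic UMIs per cell after thinning, for the members summed by role on the left and for 7 single genes on the right; the 5 groups hold 195, 129, 229, 233 and 160 cells. Licensing genes, Mcm6, Mcm2 and Ung peak at 1 mitotic UMI, and nucleotide supply, Rrm1 and Tk1 at 5 to 9.

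Of 35 members with at least 50 UMIs, 7 were 1.5-fold or more higher in mitotic-positive than in mitotic-negative crypt cells, where 11.0% of all genes were, and 1 was lower by as much (5.23% of all genes). The median member ratio was 1.10 and that of all genes 1.05. The 7 were Rrm2 (4.57-fold), Tk1 (3.83), Cdc45 (2.55), Tyms (2.12), Clspn (2.00), Fen1 (1.61) and Rrm1 (1.57), so that 4 of the 5 genes of nucleotide supply were among them and Dut was not. Rrm2, the regulated subunit of ribonucleotide reductase, had a log2 ratio of 2.19 (1.47 to 3.01), with 0.192 at 0 mitotic UMIs, 1.15 at 2 to 4 and 0.776 at 10 or more. Tk1, thymidine kinase 1, had a log2 ratio of 1.94 (1.49 to 2.42), and its level was 0.554 at 0, 2.65 at 5 to 9 and 2.09 at 10 or more. Cdc45, the activator of the helicase, had 1.35 (0.54 to 2.26), from 0.170 at 0 to 0.677 at 2 to 4 mitotic UMIs. All 3 stayed above their level at 0 mitotic UMIs in the cells with the most mitotic transcripts.

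The lowest 3 ratios were those of Ung (log2 -0.93), Mcm2 (-0.51) and Mcm6 (-0.46). Ung stood at 0.830 with 0 mitotic UMIs, 1.08 with 1 and 0.118 (5 UMIs) with 10 or more, and Mcm6 at 3.58, 4.71 and 1.48. Summed by role, nucleotide supply was 1.73-fold higher in mitotic-positive cells, origin firing and the fork 1.29-fold and licensing 0.880-fold. How many members pass depends on the split: with no thinning 19 were higher and 0 lower, and with at least 4 mitotic UMIs 4 were higher and 6 lower. Among other replication genes, 22 of 63 were higher and 1 lower. The 3 highest were Esco2, which ties sister chromatids together in S phase (log2 3.37), Rad51ap1, of recombination repair (2.70), and Ccna2, cyclin A2 (2.55). The 3 lowest were Donson (-0.60), Cdca7 (-0.53) and the licensing factor Cdt1 (-0.51).

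Between stem cell-like and transiently amplifying-like cells of these clusters, few members passed the limits gene by gene. Of 36, 1 was 1.5-fold or more higher in the amplifying cells (background 10.5%), namely Rrm2 at 2.07-fold, and 1 was at 0.5 or less (background 4.12%), namely Pola1 at 0.41 of the stem level. The median ratio was 1.00, against 1.03 over all genes. Mcm6 was at 3.16 in stem and 3.12 in amplifying cells, Dut at 2.89 and 2.72, Rrm1 at 2.16 and 2.14, Pcna at 1.90 and 2.06 and Nasp, the chaperone of free histone H3 and H4, at 1.98 and 2.16. Tk1 was at 1.5 and 2.12 (log2 0.49, 0.21 to 0.77) and Mcm2 at 1.68 and 1.2 (log2 -0.49, -0.83 to -0.16), the same directions as along the mitotic order. Other replication genes farthest from the stem level were Asf1b (log2 0.99), E2f2 (0.97) and E2f8 (0.97) above it, and Cdca7 (-1.44) and E2f3 (-0.77) below.

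Between the genotypes the summed member level differed little over all cells. WT cells held 26.2 and ROBO cells 25.6, which is a log2 ratio of ROBO over WT of -0.04 (-0.09 to 0.01). Mitotic genes went from 33.7 to 30.9 (log2 -0.12). Within stem cell-like cells the members were at 40.5 in WT and 41.4 in ROBO (log2 0.03, -0.04 to 0.10). This small ratio moved with the processing, to 0.10 (0.03 to 0.16) with 30 principal components, -0.08 (-0.18 to 0.01) at a resolution of 0.4 and -0.05 with equal weight for each cell. The first of these is not for the same cells, since the stem class there takes in a cluster led by Sfrp5 and Dmbt1. Bottom enterocytes held 15.1 in WT and 11.9 in ROBO (-0.35, -0.62 to -0.08), middle enterocytes 6.58 and 7.04 (0.10, -0.08 to 0.28) and top enterocytes 4.86 and 4.35 (-0.16, -0.65 to 0.33). The difference in the bottom cells rests on few cells, since 21 of them held 57.8% of the UMIs of both genotypes together.

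In the transiently amplifying-like cells the level was 39.5 in 237 WT cells and 44.4 in 153 ROBO cells (log2 0.17, 0.07 to 0.26). Depth moved with genotype there: 22.8% of the WT cells but 1.96% of the ROBO cells were below the depth used for thinning, and these shallow WT cells held 27.9 member UMIs per 10000, with 45.6 of the ribosomal RNA transcript Rn45s against 6.24 in deeper WT cells. Among the deeper cells the levels were 40.4 in WT and 44.5 in ROBO (log2 0.14, 0.04 to 0.24), an alternative added after seeing the data. With 30 principal components, also added then, the log2 ratio was 0.04, in a different amplifying class of 176 cells. In the deep stem cell-like cluster the levels were 50.9 in WT and 56.5 in ROBO (0.15, 0.05 to 0.24). At equal depth, 63.4% of the amplifying cells held 3 or more member UMIs, 59.0% in WT and 68.7% in ROBO, a difference of 9.65 percentage points (-0.75 to 19.6), and in stem cells 55.6% and 60.3% (4.71, -3.10 to 12.4), so both intervals include 0. In the deep stem cell-like cluster alone the shares were 69.6% in WT and 82.6% in ROBO (13.0 points, 0.69 to 24.9), which barely leaves out 0. The thinning was a single random draw, and 55 of these 184 cells stood at the limit of 3 member UMIs or 1 below it. Without thinning nearly all cells passed, 97.8% in WT and 98.9% in ROBO (1.06 points, -4.00 to 6.49). The difference was 6.06 points (-10.9 to 22.6) in the shallow cluster and -1.05 (-12.2 to 10.2) in the Igfbp4 and Lgr5 cluster.

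Along the villus axis WT and ROBO stood at 45.1 and 47.9 in bin 1, 43.3 and 49.1 in bin 2 (log2 0.18, 0.07 to 0.29), 31.0 and 29.4 in bin 5, 17.1 and 17.5 in bin 6, and 4.08 and 3.80 in bin 10. In each of bins 3 to 10 the interval of the summed log2 ratio included 0. The last bin of single members was not worked out by genotype. The mitotic genes were not alike there: in bins 4 and 5 they were at 54.6 and 53.9 in WT and at 43.9 and 39.5 in ROBO, while the members were at 37.4 in both genotypes in bin 4.

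Split by mitotic transcripts, stem cell-like cells differed between genotypes in both directions. Mitotic-positive stem cells held 44.2 in WT and 50.2 in ROBO (log2 0.19, 0.10 to 0.28), and mitotic-negative ones 36.8 and 33.5 (-0.13, -0.25 to -0.02). No other depth or limit on mitotic UMIs was run for this split of the stem cells. Over all mitotic-positive epithelial cells the levels were 37.1 in WT and 39.5 in ROBO (0.09, 0.02 to 0.15), but the log2 ratio was 0.26 (0.19 to 0.34) with at least 4 mitotic UMIs, 0.02 after thinning to the median depth and -0.04 with no thinning, so its size and direction depend on how dividing cells are picked.

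Gene by gene over all cells, 1 of 36 members was 1.5-fold or more higher in ROBO (2.38% of all genes were) and 0 were lower by as much (2.77%). In all, 18 members were higher and 18 lower, and the median log2 ratio was 0.00, as over all genes. The 1 member was Exo1, with 24 UMIs in WT and 36 in ROBO, or 0.0895 and 0.148 per 10000 (log2 0.73, -0.06 to 1.54), an interval that includes 0. The intervals of 3 members left 0 out, all lower in ROBO. Lig1, which seals Okazaki fragments, was at 1.02 in WT and 0.741 in ROBO (274 and 180 UMIs, log2 -0.46, -0.74 to -0.19). Tk1 was at 1.2 and 0.959 (322 and 233 UMIs, -0.32, -0.57 to -0.08), and Rfc2 at 1.07 and 0.865 (287 and 210 UMIs, -0.31, -0.57 to -0.05). No correction was made for the 36 intervals.

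**Figure D4:**
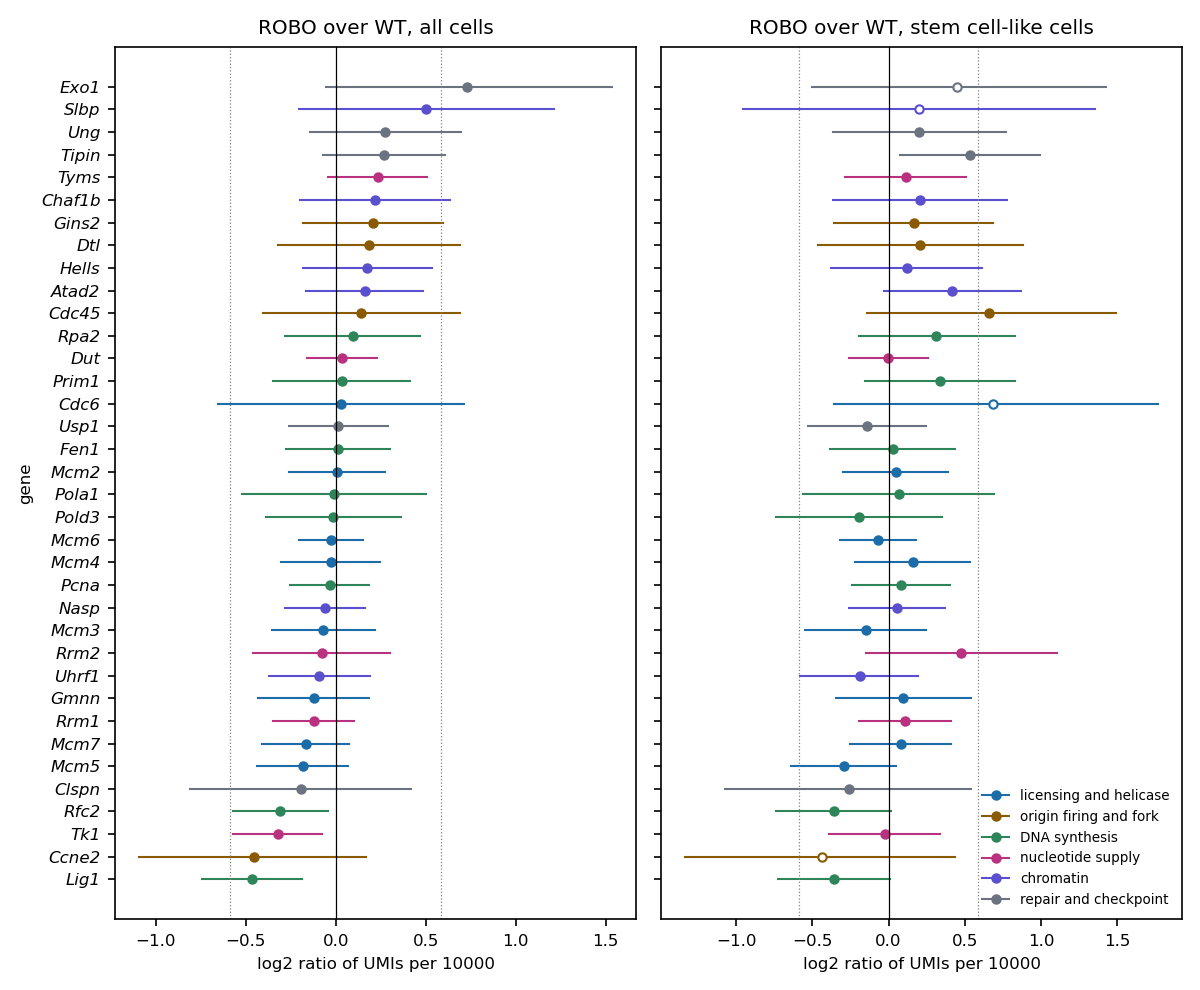
Log2 ratio of ROBO over WT (points, coloured by role) with 95% counting intervals (lines) for each of the 36 members, over all cells on the left and in stem cell-like cells on the right; open points have fewer than 50 UMIs and dotted lines mark 1.5-fold. Over all cells Exo1 is farthest right at 0.73 and Lig1 farthest left at -0.46, and in stem cell-like cells the interval of Tipin alone leaves out 0.

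The most abundant members were close to equal. Mcm6 was at 2.11 in WT and 2.08 in ROBO over all cells, Dut at 1.71 and 1.75, Pcna at 1.36 and 1.33 and Nasp at 1.34 and 1.29. Rrm1, the large subunit of ribonucleotide reductase, was at 1.37 and 1.26, Mcm7 at 1.19 and 1.06 and Mcm5 at 1.10 and 0.972, each with an interval that includes 0. Among the rarer members, Ccne2, cyclin E2, was at 0.209 and 0.152 (56 and 37 UMIs, -0.45, -1.09 to 0.17) and Slbp at 0.119 and 0.169 (32 and 41 UMIs, 0.50, -0.20 to 1.22). All members besides Exo1, Slbp, Lig1, Ccne2, Tk1 and Rfc2 lay between a log2 ratio of -0.19, that of the checkpoint mediator Clspn, and 0.28, that of Ung. Summed by role, synthesis genes were lower in ROBO (log2 -0.12, -0.23 to -0.01), licensing (-0.08) and nucleotide supply (-0.05) closer to 0, and chromatin (0.05), origin firing and fork (0.08) and repair and checkpoint (0.15, -0.02 to 0.33) above it.

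Within stem cell-like cells 1 of 32 members was 1.5-fold or more higher in ROBO (background 3.9%) and 0 were lower (3.53%). It was Cdc45, at 0.260 in WT and 0.412 in ROBO (23 and 34 UMIs, log2 0.66, -0.14 to 1.49). The partner of Timeless at the fork, Tipin, was at 0.804 and 1.16 (71 and 96 UMIs, 0.53, 0.08 to 1.00), the single member there whose interval left out 0. The histone reader Atad2 (log2 0.42), the primase Prim1 (0.34) and Rpa2, which coats single-stranded DNA (0.31), were higher in ROBO with intervals that include 0. Mcm6 was at 3.23 and 3.08, Dut at 2.89 and 2.88 and Pcna at 1.85 and 1.95 in these cells. In the mitotic-positive epithelial cells 0 of 33 members were past 1.5-fold in either direction (backgrounds 5.77% and 4.22%).

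In the transiently amplifying-like cells 3 of 26 members were 1.5-fold or more higher in ROBO (background 7.9%) and 1 lower (7.79%). The 3 were Hells, a chromatin remodeller needed for DNA methylation, at 0.689 in WT and 1.19 in ROBO (log2 0.79, 0.11 to 1.48), Tyms, thymidylate synthase, at 1.30 and 2.01 (0.63, 0.13 to 1.14) and Fen1, the flap nuclease of Okazaki fragments, at 1.00 and 1.53 (0.61, 0.03 to 1.19). Gmnn was lower, at 1.2 and 0.766 (-0.65, -1.36 to 0.03). Mcm6 was at 2.62 and 3.83 (0.55, 0.19 to 0.91) and Dut at 2.36 and 3.23 (0.45, 0.07 to 0.84), just inside the limit of 1.5-fold, while Tk1 was at 2.3 and 1.84 and Mcm7 at 2.07 and 1.5. The shallow WT cells of this cluster enter all of these values.

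Of the other replication genes, 70 had at least 50 UMIs over all cells, with a median ratio of ROBO over WT of 0.99. Donson, a factor that helps to place the helicase, was at 0.127 in WT and 0.259 in ROBO (34 and 63 UMIs, log2 1.03, 0.41 to 1.68), followed by Cdk2 (0.57, 0.17 to 0.99) and Gins1 (0.41). The lowest were Brca2 (-0.59, -1.21 to 0.02), Blm (-0.58) and Recql4 (-0.53). In the top enterocytes 7 of 54 such genes were at 0.5 of their stem level or above, namely Orc4, E2f3, Cdc25a, E2f8, Pole3, Casp8ap2 and Ubr7, on 5 to 22 UMIs each, against 0 of 33 members. The lowest with a UMI there were Stmn1 (log2 -5.26), Pold1 (-4.98) and Rpa1 (-4.83), each with 1 UMI, and Pole, Timeless, Chtf18 and Brca2 had none. Stmn1 and Pole were also among the lowest in bottom enterocytes (-3.38 and -2.97), with Mms22l (-3.59), while Orc3 (0.74), E2f2 (0.28) and Cdc25a (0.13) were at or above their stem level there.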

How the data were processed

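Raw UMI counts per gene and cell were deposited by the authors as 1 matrix per genotype, after preprocessing in BaseSpace Sequence Hub. The submitters' notes name mm10 and GRCm38, and the aligner, annotation and rule for calling cells are not given in the sources used here. All cells were used. Clustering used Seurat 5.3.0 in R 4.3.3, on 20 principal components of 2000 variable genes at a resolution of 0.8, with cell-cycle genes left out. A cluster was named for a class when at least 3 of its markers were raised 1.5-fold and detected in 10% of cells, and a name yielded to a class with more markers among the 10 leading genes. This naming rule was set after the clusters were seen. Scrublet in scanpy 1.11.5 called 2 WT and 4 ROBO doublets, which were kept. Cell names hold no barcodes, so shared barcodes could not be counted.

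UMIs were summed per class and scaled to 10000. Intervals are exact Poisson, conditional exact (ratios), Clopper-Pearson (shares) and Newcombe (differences of shares), from scipy 1.17.1. Only the conditional exact interval was tested on simulated data, which were sums per genotype without single cells. Gene counts against the background use genes with at least 50 UMIs in the cells compared. Promoter windows came from RefSeq (GRCm38.p6). The members and lists were chosen with earlier results of these data known. Values are given for the 8 members with the most UMIs, those past 1.5-fold between genotypes, those nearest to persisting at the villus top, the 3 highest and 3 lowest between mitotic-positive and mitotic-negative cells, and, of other replication genes, the 3 farthest in each direction, of which 1 is not reported here. Other members are named for where they fall in a count and were chosen after their values were seen.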

Additional observations from a re-analysis of the deposited data

How the results depend on the processing

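Of 128 alternatives, 79 stayed within the interval of the value reported or within 1.5 times the count, 48 moved and 1 reversed. No paired analysis was possible because a cell's name does not give its sample, and for the same reason no replicate could be left out. With clusters from all variable genes and S and G2M scores regressed out, the member levels per 10000 were 20.9 in stem, 45.3 in transiently amplifying, 9.37 in bottom and 10.3 in middle cells, the top over stem ratio was 0.220, 1 member persisted, and 30% of stem cells held 3 or more member UMIs. At a resolution of 0.4, where no bottom class was found, the stem, amplifying and middle levels were 32.1, 46.8 and 7.77, the ratio 0.140 with 1 member persisting, and the genotype log2 ratio in stem cells -0.0839. At 1.2 the bottom and middle levels were 11.8 and 4.74. With 30 principal components, where the stem class takes in a cluster led by Sfrp5 and Dmbt1, stem and amplifying levels were 39.1 and 46.4. The genotype log2 ratio in those stem cells was 0.0951 (0.0344 to 0.156), an interval that leaves out 0. That in the amplifying cells, an alternative added after seeing the data, was 0.0380. Without called doublets the bottom level was 15.2. With at least 500 genes per cell, bottom and middle levels were 12.2 and 4.82. With equal weight for each cell, stem, amplifying and bottom levels were 37.6, 40.1 and 11.7, the top over stem ratio 0.136 and the genotype log2 ratio in stem cells -0.0528. Without Rn45s and ribosomal protein genes in the totals, stem, amplifying, bottom and middle levels were 50.7, 48.0, 16.3 and 7.45, and the ratio 0.0936. The bin 10 over bin 1 ratio, 0.0848, was 0.102 under the other ranking and 0.0622 with 20 bins. The genotype log2 ratio in mitotic-positive cells was 0.0204 after thinning to the median depth, -0.0395 without thinning (reversed) and 0.26 with at least 4 mitotic UMIs, and its interval included 0 with TMM and with DESeq2 size factors. With a minimum of 100 UMIs, 0 members were past 1.5-fold higher in ROBO. Between mitotic-positive and mitotic-negative cells, 19 were higher and 0 lower without thinning, and 4 and 6 with at least 4 mitotic UMIs. The share of stem cells with member UMIs was 76.7% after thinning to the median depth, 67.0% without thinning (ROBO minus WT -5.35 points), 89.2% at 1 or more UMIs and 33.8% at 5 or more. In top cells it was 34.6% and 0% at those limits. The cause was not tested in any of these.

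Under each of the alternatives run, top enterocyte-like cells stood below stem cell-like cells. Depth limits the genes more than the sums: with 60 UMIs, the interval of the genotype log2 ratio of Exo1 ran from -0.06 to 1.54.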
